A study of Homo sapiens with 4 samples.

Results

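Imprinted genes are transcribed mainly from the copy inherited from the mother or mainly from that inherited from the father. Those described here are 38 of the 60662 genes in the deposited table, spread over 19 human imprinted loci. They were chosen by gene name, with their values in JMJD3 cells and vector cells already known, so every difference between these groups is given as a description and supports nothing by itself. Each of the 38 names was found in the deposited table, and 1 gene identifier was used per name.

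NB4 is an established human cell line of acute promyelocytic leukemia (M3/APL) that carries the PML-RARα fusion. Polyadenylated RNA was sequenced from NB4 cells that carried a control vector (vector cells, 2 libraries) or a vector for JMJD3 (JMJD3 cells, 2 libraries), to ask how raised JMJD3 alters gene expression. JMJD3 is the product of KDM6B, a demethylase that removes methyl groups from lysine 27 of histone H3. The methods describe lentiviral vectors with a GFP reporter and sorting of transduced lines for GFP, so both groups are sorted pools that share the line, the viral backbone and the reporter. Nothing in the labels states that libraries of a group came from separate cultures or transductions, and p-values then measure only the spread between these samples, which may be technical. The lane was 20 for vector replicate 1 and 17 for the remaining 3 libraries, so that values within lane 17, without vector replicate 1, are given beside the pooled ones for the main members.

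Counts given here are the deposited estimates divided by 1 factor per library, as described with the processing below. They came to 34190333 in vector replicate 1, 38947093 in vector replicate 2, 35431654 in JMJD3 replicate 1 and 41876229 in JMJD3 replicate 2. Levels of a gene across libraries are in CPM, counts scaled to the TMM-adjusted size of the library, with the SD over 2 libraries. A count of 0 allows up to 3 counts, which are 0.0925, 0.0822, 0.0805 and 0.0672 CPM in the libraries in the same order, and such limits cover counting error only. Of the 60662 genes, 15243 passed the expression filter and were tested. A gene is said to have risen or fallen where edgeR's quasi-likelihood test, adjusted across every gene tested, gave p under 0.05.

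Imprints are laid down in the germline as DNA methylation of control regions and are kept in body cells by DNMT1 and by zinc finger proteins that recruit TRIM28. At some loci the silent copy also carries trimethylated lysine 27 of histone H3, the mark that PRC2 writes and JMJD3 removes. Many of these genes act in fetal growth and in the placenta and are low in adult blood cells. Counts per gene do not separate the parental copies, so imprinting itself was not measured.

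The label of the line was checked against promyelocyte markers. MPO, the myeloperoxidase of azurophil granules, was the most abundant of 8 such markers, at 14000 CPM in vector cells and 9400 CPM in JMJD3 cells. The summed level of the markers was 16700 and 17500 CPM in the vector libraries and 10600 and 10500 CPM in the JMJD3 libraries. Of 7 markers tested, 4 fell, namely MPO, AZU1 and the granule proteases CTSG (log2 fold change -3.91) and PRTN3 (-1.81). The surface receptor gene CD33 rose (0.29), and CSF3R (0.26) and LYZ (-0.18) did not pass, so the granule genes that fell did not stand for the whole list. ELANE, the neutrophil elastase gene, had only 11 and 7 counts in vector cells and 1 and 2 in JMJD3 cells. Their part in the differences below was not tested, and in bulk RNA fewer cells of a type cannot be told apart from less RNA per cell.

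KDM6B (ENSG00000132510) lies on chromosome 17 from 7737535 to 7758114 on the plus strand of GRCh37, the build of all gene positions given here. It was at 15.8 and 13.7 CPM in the vector libraries and at 37.9 and 44.2 CPM in the JMJD3 libraries. The groups did not overlap, and KDM6B rose 2.79-fold (log2 fold change 1.48, SE 0.13; 1.54 within lane 17). Transcripts of the vector and of the cell's own gene were not counted apart. KDM6A, the related demethylase gene on the X chromosome, had a log2 fold change of 0.32 (SE 0.19) and did not pass.

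Among the imprinted genes, 4 rose at least 2-fold in JMJD3 cells, namely H19, DLK1, SLC22A18 and the noncoding gene RP1-309F20.3, and MKRN3, INPP5F, L3MBTL1 and COPG2 rose by less. GNAS, GRB10 and NAA60 fell by less than 2-fold. In all, 20 of the 38 members passed the expression filter and 18 did not. Of these 20, 8 rose at any fold, where 21.7% of all genes tested rose, and 4 rose at least 2-fold, where 7.59% of all genes tested did. Also of the 20, 3 fell at any fold and 0 at 2-fold, where 19.1% and 2.87% of all genes tested fell, and the other 18 members were not tested. Nothing is read from these counts, since the members were named with this comparison known and a gene near 0 in vector cells entered the test only where it was higher in JMJD3 cells. The count of 0 comes from edgeR, and it was also 0 at an unadjusted p under 0.05, with the DESeq2 Wald test and with limma on FPKM values. The log2 fold changes of the 20 ran from -0.39 to 4.17 with a median of 0.21, against a median of 0.04 over all genes tested. The other 9 that passed the filter had log2 fold changes from -0.13 to 0.27 and did not pass the test.

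**Figure D1:**
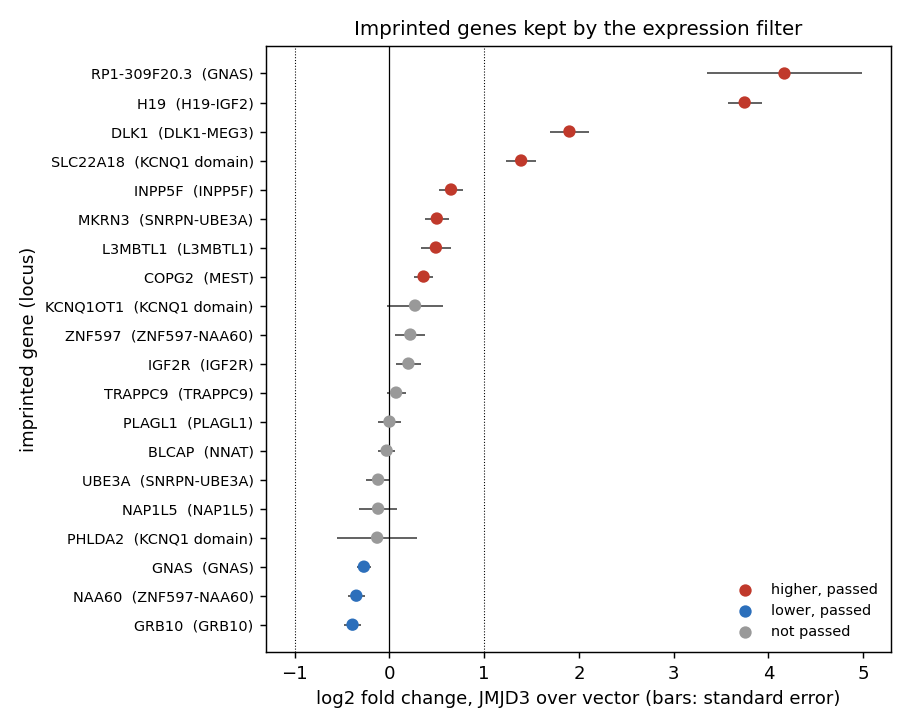
Log2 fold change (JMJD3 over vector cells, x axis) of the 20 imprinted genes that passed the expression filter, with the locus of each in brackets and bars for 1 standard error; red points rose, blue points fell and grey points did not pass, and dotted lines mark a 2-fold change. Among the 4 points right of the 2-fold line, that of RP1-309F20.3 rests on 1 count in vector cells.

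H19 (ENSG00000130600) is a noncoding RNA of chromosome 11, from 2016396 to 2025782 on the minus strand, and is transcribed in fetal tissues mainly from the maternal copy. The vector libraries held 32 and 52 H19 counts and the JMJD3 libraries 618 and 727. In CPM these were 0.987 and 1.43 against 16.6 and 16.3, a mean of 1.21 ± 0.310 (SD, n = 2) in vector cells and 16.4 ± 0.210 (SD, n = 2) in JMJD3 cells. Each JMJD3 library thus lay far above each vector library, and the JMJD3 libraries were close to each other. H19 rose 13.5-fold (log2 fold change 3.75, SE 0.18). Within lane 17 the log2 fold change was 3.48, and without vector replicate 2 it was 4.05. Per length of transcript, H19 was at 0.928 and 1.32 FPKM in vector cells and at 9.60 and 9.71 FPKM in JMJD3 cells. The difference was 2.33 on the log2(FPKM + 1) scale, which understates the change of low genes, and 3.01 on log2(FPKM + 0.1). The transcript length that the estimate used for H19 also differed between groups, as given below.

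**Figure D2:**
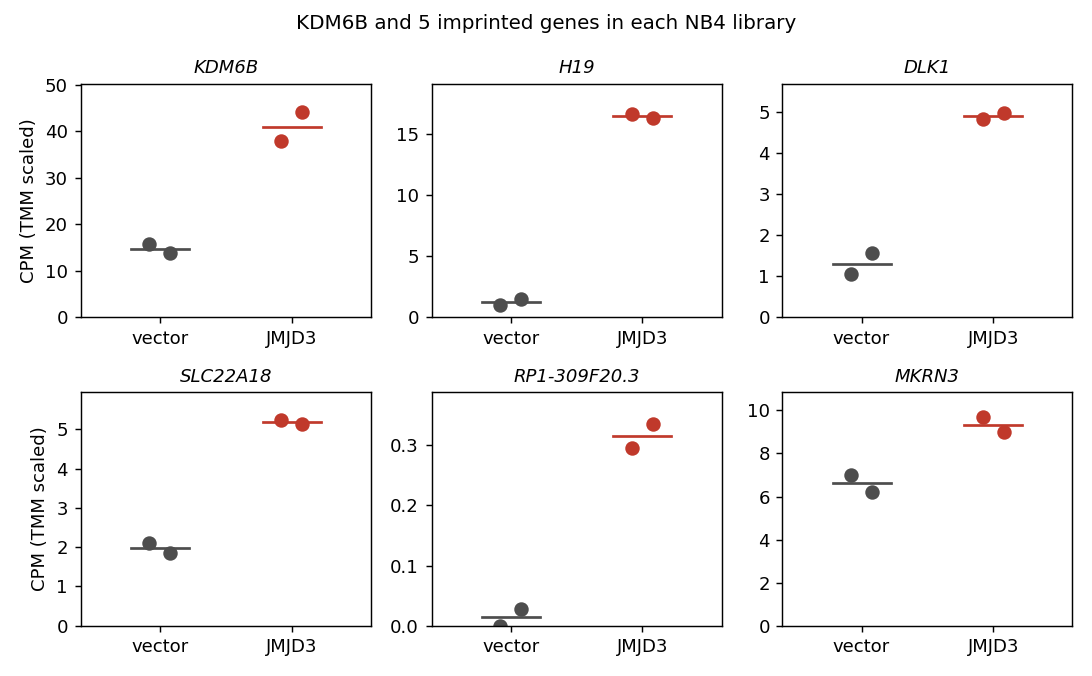
CPM (y axis) of KDM6B and 5 imprinted genes in each of the 4 NB4 libraries, with points for libraries and lines for group means. In each panel both JMJD3 libraries lie above both vector libraries, with H19 at 16.6 and 16.3 CPM against 0.987 and 1.43 CPM.

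The window printed first runs from 250 bases before to 50 bases after an annotated H19 start. H19 was chosen as the member with the most counts among those that rose at least 2-fold. After it comes the window of MKRN3, a coding gene that rose by less. Both come from RefSeq (GRCh38.p14), H19 at chr11:2001217-2001516 on the minus strand and MKRN3 at chr15:23565424-23565723 on the plus strand. They read 5′ to 3′ with each CG, the pair of bases that carries DNA methylation, in capitals.
H19: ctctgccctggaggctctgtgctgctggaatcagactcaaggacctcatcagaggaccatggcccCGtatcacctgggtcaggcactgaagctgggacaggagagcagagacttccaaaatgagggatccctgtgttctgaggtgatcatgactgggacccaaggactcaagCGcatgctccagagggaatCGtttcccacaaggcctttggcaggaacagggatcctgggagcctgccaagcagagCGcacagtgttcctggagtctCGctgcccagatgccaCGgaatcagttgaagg
MKRN3: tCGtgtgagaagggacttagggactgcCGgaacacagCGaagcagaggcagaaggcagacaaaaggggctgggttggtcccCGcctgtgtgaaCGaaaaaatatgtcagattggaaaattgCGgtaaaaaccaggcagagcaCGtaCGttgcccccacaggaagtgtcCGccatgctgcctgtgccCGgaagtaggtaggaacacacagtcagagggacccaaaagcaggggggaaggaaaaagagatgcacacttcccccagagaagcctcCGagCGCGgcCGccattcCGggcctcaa

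The H19 window held 6 CG pairs, and 36.8% of 35116 windows of this length held 6 or fewer. It covers only the annotated start that the RefSeq table gives for H19. Other H19 starts were not searched, and the start used in these cells was not measured. The window of MKRN3 held 15, close to the median of 14 over all windows. The hexamer TGCCGC, the core letters that ZFP57 binds when methylated, was searched on both strands and stood in 16.7% of all windows and in neither of these. RefSeq windows were found for 24 of the 38 members, 54 windows in all, and 22 of the 54 (40.7%) held the hexamer. The hexamer holds a CG, and the member windows had a median of 18 CG pairs against 14 over all windows. Nothing is read from this share. Windows of a gene overlap, and SNRPN and SNURF share 1, so the 54 are not independent. Among 5 members with a window that rose, L3MBTL1 alone had the hexamer, and a match is only a run of letters and not a bound site. SLC22A18, DLK1 and RP1-309F20.3 have no window in the RefSeq table.

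H19 is also the host transcript of miR-675, whose mature strands are shown because they are the known short products of the member that rose most by counts. They lie on the minus strand of GRCh38.p14 at chr11:1996800-1996822 (5p) and chr11:1996768-1996787 (3p), from RefSeq, with bases 2 to 8, the seed that pairs with targets, in capitals.
hsa-miR-675-5p: uGGUGCGGagagggcccacagug
hsa-miR-675-3p: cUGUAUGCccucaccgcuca
The MIR675 gene itself was listed at 0 in all 4 libraries, and its mature miRNAs were not measured.

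IGF2 (ENSG00000167244), the fetal growth factor gene that shares enhancers with H19 and is read from the paternal copy, starts on the far side of a gap of 124.6 kb. It had 0 and 1 counts in vector cells and 0 and 0 in JMJD3 cells, at the limit of detection in each library. In JMJD3 cells H19 was thus well above the limit of detection and IGF2 was at 0.

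Within 500 kb of H19 or IGF2, 13 other genes were tested, of which 6 rose and 2 fell. Across all genes tested 21.7% rose, 7.59% at least 2-fold, and 19.1% fell, and nothing particular to the locus is read from these counts. MRPL23-AS1, a noncoding gene 5.2 kb from H19, had 10 and 6 counts in vector cells and 28 and 37 in JMJD3 cells (log2 fold change 1.75, SE 0.38). It overlaps the end of MRPL23 on the other strand, so the counts of MRPL23-AS1 and MRPL23 may share reads. LSP1, a leukocyte actin-binding protein gene, had 15 and 8 against 37 and 51 counts (1.66, SE 0.38). RP11-295K3.1, a gene named only by its clone, had 114 and 69 against 224 and 282 counts (1.20, SE 0.26). RP11-295K3.1 overlaps CTSD and IFITM10 on the same strand, so its counts may share reads with theirs. TSPAN32, a tetraspanin gene of blood cells 297.4 kb from H19, had 356 and 427 against 909 and 1053 counts (1.08, SE 0.10). These 4 genes rose at least 2-fold, although TSPAN32 was at 0.99 within lane 17 and RP11-295K3.1 at 0.81 without vector replicate 2. MRPL23, which lies between LSP1 and H19, fell (-0.49). The median over the 13 genes was -0.17, so genes that rose and genes that did not stood side by side around H19.

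**Figure D3:**
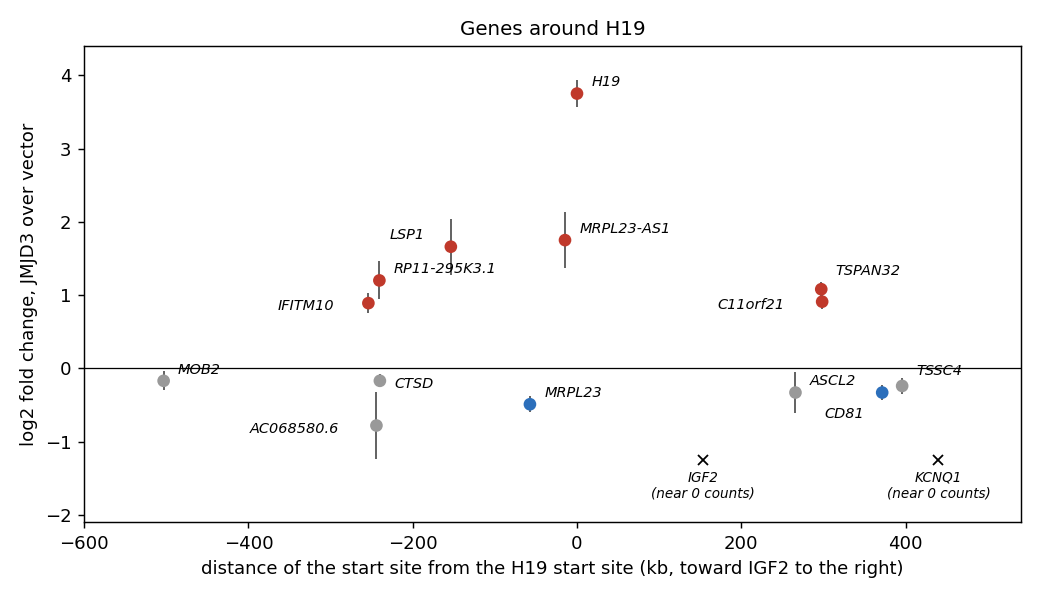
Log2 fold change (JMJD3 over vector cells, y axis, bars for 1 standard error) of genes near H19 against the distance of their start site from that of H19 in kb (x axis); red points rose, blue points fell, grey points did not pass and crosses mark genes near 0 counts, placed without a value. H19 stands at 3.75 and MRPL23-AS1 at 1.75, while MRPL23 is below 0.

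The KCNQ1 domain lies next to the H19 locus on chromosome 11 and is ruled by KCNQ1OT1, a paternal noncoding RNA that silences its neighbours. SLC22A18 (ENSG00000110628, 2920951 to 2946476, plus strand), a gene for a transporter-like membrane protein expressed mainly from the maternal copy, had 68 and 68 counts in vector cells and 195 and 229 in JMJD3 cells. Its levels were 2.10 and 1.86 CPM against 5.23 and 5.13 CPM, with no overlap between groups. SLC22A18 rose 2.62-fold (log2 fold change 1.39, SE 0.16; 1.43 within lane 17), and on the log2(FPKM + 1) scale by 0.97, under the 2-fold limit.

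KCNQ1OT1 itself had 46 and 35 counts in vector cells and 43 and 75 in JMJD3 cells, so its groups overlapped (log2 fold change 0.27, SE 0.30). PHLDA2, a maternal gene that restrains placental growth, had 9 and 14 against 9 and 16 counts (-0.13, SE 0.42), again with overlap. CDKN1C, the maternal gene of the cell cycle inhibitor p57, had 1 and 1 against 0 and 2 counts. KCNQ1, a potassium channel gene, was at 0 in all 4 libraries. Of the 5 members of this domain SLC22A18 alone passed the test. Among 13 other genes tested within 500 kb of these members 4 rose and 3 fell, with a median of -0.12. Those shares over all genes tested were 21.7% and 19.1%. MRGPRE, a receptor gene, rose from 20 and 17 to 64 and 100 counts (1.88, SE 0.28). TSPAN32 and MRPL23-AS1, which also rose at least 2-fold, are counted both here and around H19.

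DLK1 (ENSG00000185559, chromosome 14, 101192042 to 101204561, plus strand) encodes a membrane protein of fetal and progenitor cells and is expressed from the paternal copy. It had 34 and 57 counts in vector cells and 180 and 223 in JMJD3 cells. Its levels were 1.05 and 1.56 CPM against 4.83 and 4.99 CPM, so that the groups lay apart. DLK1 rose 3.73-fold (log2 fold change 1.90, SE 0.21; 1.61 within lane 17 and 2.22 without vector replicate 2). On FPKM values the change was smaller, 0.64 with a pseudocount of 1, and at 1.24 with a pseudocount of 0.1 it did not pass limma's test.

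MEG3, the maternal noncoding RNA of the same locus, had 0 and 1 counts in vector cells and 0 and 0 in JMJD3 cells. RTL1, a paternal gene derived from a retrotransposon, was at 0 in all 4 libraries. DLK1 was thus the only member of the locus above the filter. Of 6 other genes tested within 500 kb 0 rose by edgeR and 1 fell, where 21.7% and 19.1% of all genes tested did.

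GNAS (ENSG00000087460, chromosome 20, 57414773 to 57486247, plus strand) encodes the stimulatory G protein alpha subunit, with a choice of first exons that differ in their imprinting. It was at 822 and 885 FPKM in vector cells and 729 and 686 FPKM in JMJD3 cells, above the other 37 members per length in each library. In CPM it was at 1080 and 1130 against 938 and 894, a fall of 1.21-fold (log2 fold change -0.27, SE 0.07; -0.34 within lane 17). The test was not passed with upper quartile scaling (-0.24), on FPKM values (-0.27), without JMJD3 replicate 1 (-0.31) or without JMJD3 replicate 2 (-0.24).

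RP1-309F20.3 (ENSG00000225806, 57438583 to 57463864, minus strand) is a noncoding gene inside GNAS on the other strand. It had 0 and 1 counts in vector cells and 11 and 15 in JMJD3 cells. The ratio of the summed counts per library size, 26 against 1, was 21.9, with an exact 95% interval from 3.59 to 896 that covers counting error only. The fitted log2 fold change of 4.17 (SE 0.82) depends on the prior count of the fit and was 3.35 within lane 17 and 6.61 without vector replicate 2. Without JMJD3 replicate 2 it was not tested, as it failed the expression filter. Estimated counts can divide reads between overlapping genes, and the strand setting of the count is not given in the sources used here, so reads of GNAS and of its antisense genes cannot be told apart. GNAS-AS1, another antisense gene of the locus, had 0 and 2 counts against 0 and 1.

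The SNRPN-UBE3A locus of chromosome 15 is that of Prader-Willi and Angelman syndromes. MKRN3, a paternal gene for a ubiquitin ligase that delays puberty, had 227 and 227 counts in vector cells and 361 and 402 in JMJD3 cells, at 6.61 ± 0.550 CPM against 9.34 ± 0.482 CPM (SD, n = 2). The groups did not overlap, and MKRN3 rose 1.41-fold (log2 fold change 0.50, SE 0.13; 0.54 within lane 17). Its FPKM values rose more, from 4.76 and 3.60 to 11.3 and 11.1, a difference of 1.24 on the log2(FPKM + 1) scale. It did not pass with the DESeq2 Wald test (0.47), without JMJD3 replicate 1 (0.45) or without JMJD3 replicate 2 (0.55).

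UBE3A, a ubiquitin ligase gene that is maternal in neurons and read from both copies elsewhere, was at 102 ± 16.6 CPM in vector cells and 93.3 ± 7.52 CPM in JMJD3 cells (SD, n = 2), with overlapping groups (log2 fold change -0.12), and passed only without vector replicate 2 (-0.28). SNRPN, a paternal gene for a splicing protein, had 0 and 0 counts in vector cells and 2 and 1 in JMJD3 cells. SNURF, which lies within SNRPN, and the paternal genes NDN and MAGEL2 were at 0 in all 4 libraries. MKRN3 and UBE3A were thus the members of this locus above the filter. Among 5 other genes tested within 500 kb, GOLGA8S fell from 93 and 119 to 40 and 74 counts (-1.15, SE 0.24), and the counting could have divided its reads with near-identical GOLGA8 copies.

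INPP5F, an inositol phosphatase gene with an imprinted isoform, rose from 359 and 341 counts to 631 and 671 counts. Its levels were 10.2 ± 1.22 CPM in vector cells and 16.0 ± 1.34 CPM in JMJD3 cells (SD, n = 2), 1.57-fold higher (log2 fold change 0.65, SE 0.13; 0.73 within lane 17). On FPKM values the difference was 0.22 with a pseudocount of 1 and did not pass, nor did the counts without JMJD3 replicate 1 (0.56). The groups did not overlap in CPM.

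L3MBTL1, a paternal gene for a protein that binds methylated histones, was at 6.20 ± 1.13 CPM against 8.67 ± 0.362 CPM (SD, n = 2; log2 fold change 0.49, SE 0.16). It was 0.64 within lane 17 and 0.31 without vector replicate 2, where it did not pass, and it did not pass with the DESeq2 Wald test (0.45), without JMJD3 replicate 1 (0.45) or without JMJD3 replicate 2 (0.53) either. Near it SGK2, a kinase gene, rose from 4 and 2 to 11 and 19 counts (2.02, SE 0.56; 2.62 within lane 17), and TOX2 from 93 and 107 to 228 and 248 counts (1.01, SE 0.14; 0.95 within lane 17).

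COPG2, a gene for a coat protein of Golgi vesicles that overlaps the end of MEST on the other strand, was at 25.4 ± 0.984 CPM against 32.6 ± 0.474 CPM (SD, n = 2; log2 fold change 0.36, SE 0.10). It did not pass with the DESeq2 Wald test (0.33), on FPKM values (0.32 with a pseudocount of 1), or without JMJD3 replicate 1 (0.38) or JMJD3 replicate 2 (0.35). MEST, a paternal gene for a hydrolase-like protein of mesoderm, had 2 and 0 counts in vector cells and 5 and 1 in JMJD3 cells. Reads of the ends that COPG2 and MEST share cannot be told apart.

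GRB10, an adaptor gene that dampens insulin and IGF receptor signalling, fell from 105 ± 6.38 CPM to 79.6 ± 2.06 CPM (SD, n = 2; log2 fold change -0.39, SE 0.09; -0.37 within lane 17). NAA60, an acetyltransferase gene of the Golgi with an imprinted isoform, fell from 92.8 ± 4.38 CPM to 72.6 ± 1.44 CPM (SD, n = 2; -0.35, SE 0.09; -0.44 within lane 17). For both genes every JMJD3 library was lower than every vector library. Neither passed without JMJD3 replicate 1 (-0.36 for GRB10 and -0.33 for NAA60) or without JMJD3 replicate 2 (-0.42 and -0.37). On FPKM values NAA60 did not pass with a pseudocount of 1 or 0.1 (-0.33 with each), and GRB10 did not pass with a pseudocount of 0.1 (-0.45). ZNF597, a maternal zinc finger gene that starts beside NAA60, was at 7.53 ± 1.47 CPM against 8.76 ± 0.213 CPM (SD, n = 2; 0.22, SE 0.16) and passed only without vector replicate 1 (0.39).

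Around NAA60 and ZNF597 on chromosome 16, a gene-dense stretch, 32 other genes were tested within 500 kb. Of these 14 rose and 5 fell, with a median of 0.36, where 21.7% and 19.1% of all genes tested did. Nothing particular to the locus is read from these counts. IL32, a cytokine gene, rose from 190 and 313 to 1420 and 1578 counts (2.34, SE 0.18). LA16c-380H5.5 rose by 1.45, CLDN9, a claudin gene, by 1.33 (0.93 within lane 17), MMP25, a membrane metalloprotease gene of leukocytes, by 1.22, LINC00921 by 1.15 and MMP25-AS1 by 1.08 (0.99 without vector replicate 2) on the log2 scale. RP11-461A8.4 fell from 118 and 172 to 65 and 52 counts (-1.54, SE 0.24). MMP25 and MMP25-AS1 overlap on opposite strands, so that their counts may share reads.

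The other members above the filter did not pass the test. IGF2R, the receptor that clears IGF2 and carries enzymes to lysosomes, had overlapping groups at 144 ± 24.1 CPM against 165 ± 15.4 CPM (SD, n = 2; log2 fold change 0.20, SE 0.13), passed within lane 17 (0.34) and was -0.12 on the log2(FPKM + 1) scale. PLAGL1, a zinc finger gene that slows growth, was at 23.8 ± 2.91 and 23.8 ± 1.42 CPM (SD, n = 2), with a log2 fold change of -0.00 that took either sign across settings. BLCAP, a gene whose intron holds NNAT, was at 37.2 ± 0.784 and 36.4 ± 0.571 CPM (SD, n = 2; -0.03, SE 0.09). NNAT, a paternal gene of neural tissue, had 7 and 6 against 7 and 13 counts, the most of any member under the filter.

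NAP1L5, a paternal gene related to nucleosome assembly proteins, was at 4.28 ± 1.05 against 3.94 ± 0.191 CPM (SD, n = 2; -0.12, SE 0.20). TRAPPC9, a gene of vesicle transport, was at 21.6 ± 1.20 against 22.7 ± 0.0950 CPM (SD, n = 2; 0.07, SE 0.10). By contrast, its FPKM values, 12.1 and 10.1 against 7.53 and 7.30, were lower in JMJD3 cells and passed limma's test at -0.52 on the log2(FPKM + 1) scale. With a pseudocount of 0.1 TRAPPC9 was at -0.57 and did not pass. Its groups lay close but did not overlap in CPM, and for TRAPPC9 the scale sets the direction. DIRAS3, a paternal RAS-like growth inhibitor gene, had 1 and 1 against 0 and 0 counts, and ZDBF2 had 0 and 0 against 1 and 0. PEG3, ZIM2, PEG10, SGCE and PPP1R9A were at 0 in all 4 libraries, as were 10 of the 38 members in total, and 8 more were under the filter with at least 1 count.

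Grouped by the copy that is expressed in textbook accounts, 20 members are paternal, of which 6 passed the filter and 3 rose, 1 of them at least 2-fold. Of 7 maternal members 4 passed the filter and 2 rose, both at least 2-fold. Of 10 members whose imprinting depends on isoform or tissue, 9 passed the filter, 2 rose and 3 fell. RP1-309F20.3 was assigned to neither copy. Nothing is read from these counts, beside which 21.7% of all genes tested rose, 7.59% at least 2-fold, and 19.1% fell. The difference between groups of members was not tested.

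A count divided by its FPKM and by the library total gives the transcript length that the authors' estimate used for a gene in that library. The typical shift of each library was first removed. Over 15222 genes tested with a length in all 4 libraries, the 5th and 95th percentiles of the log2 change in this length were -0.32 and 0.30. Of 19 members above the filter with a length in every library 13 lay within that range. MKRN3 (-0.96), H19 (0.64), TRAPPC9 (0.62), DLK1 (0.51), INPP5F (0.33) and IGF2R (0.31) lay outside it. The length of MKRN3 was 1463 and 1767 bases in vector cells and 843 and 808 bases in JMJD3 cells, and that of H19 was 1059 and 1102 against 1703 and 1664 bases. A shift in length goes with a different mix of isoforms in the estimate, and for low genes such as DLK1 (2765 and 2018 against 3349 and 3398 bases) it rests on few counts in vector cells. For these genes CPM and FPKM values give different fold changes, and which isoforms were read was not tested.

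**Figure D4:**
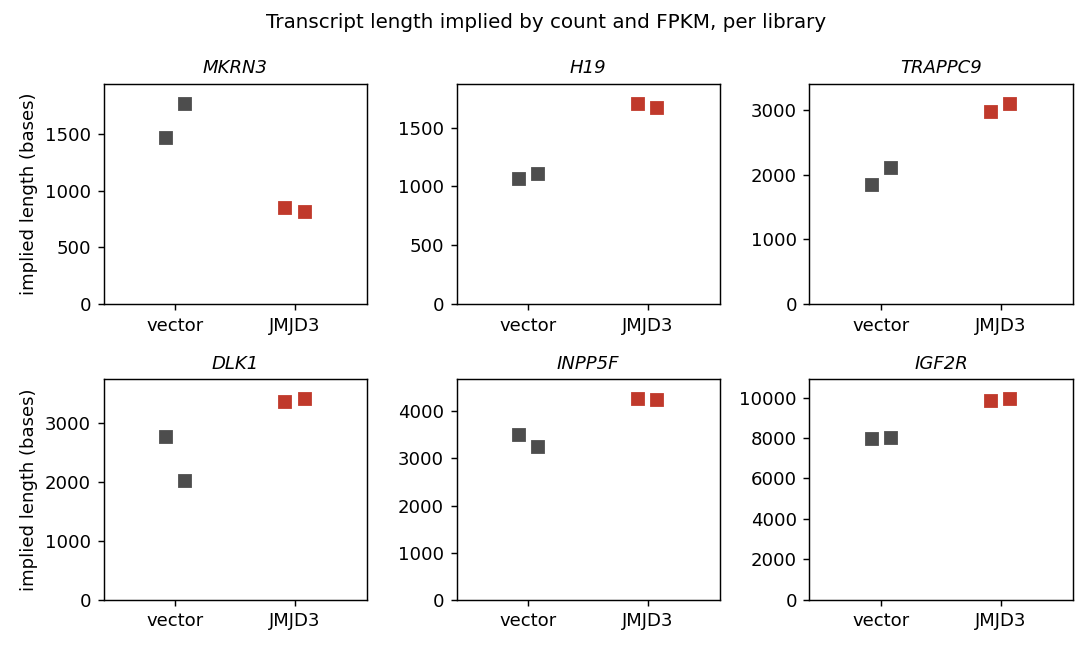
Transcript length in bases (y axis) implied by count and FPKM, with 1 square per library. Shown are the 6 members outside the range of 90% of genes tested, among those above the filter with a length in every library. MKRN3 is shorter in both JMJD3 libraries and the other 5 genes are longer.

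Over all 19 loci, 151 other genes within 500 kb of a member were tested, each counted once. Of these 39 rose and 31 fell, 14 and 4 of them at least 2-fold, with a median log2 fold change of 0.06 against 0.04 over all genes tested. Beside these counts and those by locus below, 21.7% of all genes tested rose and 19.1% fell, 7.59% and 2.87% at least 2-fold. Those not yet named were ZNF542P, which rose from 37 and 45 to 102 and 120 counts (1.19, SE 0.19), and CTC-444N24.11, which fell from 219 and 254 to 113 and 110 counts (-1.32, SE 0.16), both near PEG3. Near ZDBF2 AC007383.3 fell from 269 and 368 to 174 and 189 counts (-1.05, SE 0.15; -0.90 without vector replicate 2). At GNAS 1 of 10 rose and 3 fell, at MEST 2 of 6 rose and 1 fell, at NNAT 2 of 8 rose and 0 fell, and at PLAGL1 2 of 10 rose and 2 fell by edgeR. At NAP1L5 3 of 9 rose and 0 fell, at IGF2R 0 of 7 rose and 4 fell, at ZDBF2 0 of 7 rose and 3 fell, and at INPP5F 1 of 6 rose and 1 fell by edgeR. At PEG3 3 of 10 rose and 2 fell, at L3MBTL1 2 of 5 rose and 2 fell, and at SNRPN-UBE3A 1 of 5 rose and 2 fell. At GRB10 1 of 2 rose and 0 fell, at PEG10 0 of 2 rose and 1 fell, at TRAPPC9 0 of 4 rose and 1 fell, and at DIRAS3 0 of 3 passed by edgeR. Nothing particular to imprinted loci is read from these counts.

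Of 54 further genes of imprinted loci in the table, 18 were tested, of which 6 rose and 2 fell, with a median of -0.09. The shares over all genes tested were 21.7% and 19.1%. At 0 in all libraries were 25 of the 54, among them INS and IGF2-AS. WT1-AS, antisense to the Wilms tumor gene, rose from 252 and 271 to 640 and 850 counts (1.25, SE 0.12), and TSPAN32 is given above. ZNF264 rose by 0.89 and ERAP2, a peptide-trimming enzyme gene, by 0.87 on the log2 scale. HYMAI, a noncoding gene at PLAGL1, had 6 and 6 counts in vector cells and 1 and 0 in JMJD3 cells, too few for the filter.

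Among 28 genes for the upkeep of imprints and DNA methylation, 24 were tested, of which 6 rose and 6 fell, with a median of 0.01. Of all genes tested, 21.7% rose and 19.1% fell. ARID4B, a chromatin factor needed for imprints at the Prader-Willi locus, rose from 653 and 482 to 1599 and 2007 counts (1.40, SE 0.19). MBD3, of the NuRD complex, fell (-0.77, SE 0.11), KDM1B, a histone demethylase gene that helps set maternal imprints in oocytes, rose (0.77, SE 0.17) and TET2, which oxidizes methylated cytosine, also rose (0.71, SE 0.22). TRIM28 fell from 847 to 541 CPM (-0.65) and DNMT1 from 958 to 703 CPM (-0.45), both named for their part in the upkeep of imprints and not for size. ZFP57, DPPA3 and NLRP7 were at 0. Members of this list moved in both directions, and nothing particular to it is read from the counts.

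For this paragraph too, the shares over all genes tested are 21.7% that rose and 19.1% that fell. Of 12 genes of PRC2 and the H3K27 demethylases that were tested, 3 rose and 3 fell, with a median of 0.19. The 3 that rose include KDM6B, which the JMJD3 vector itself carries. After KDM6B came JARID2, a PRC2 cofactor gene that rose (0.72, SE 0.12), and PHF19 (-0.61, SE 0.11) and PHF1 (-0.46, SE 0.12), genes of PRC2 accessory proteins that fell. EZH2, the methyltransferase of the complex, was at -0.19 (SE 0.08) and did not pass. Of 18 genes of IGF signalling 12 were tested, of which 3 rose and 2 fell, with a median of 0.01. IRS2, an adaptor of insulin and IGF receptors, rose from 94.0 to 247 CPM (1.39, SE 0.13), IRS1 rose by 0.84 and the binding protein gene IGFBP7 by 0.46, and IGFBP2 fell (-0.38). IGF1 had 0 and 1 against 1 and 0 counts, so that both IGF ligand genes were at the limit of detection.

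Since H19, DLK1 and other imprinted genes are high in fetal and stromal tissues, markers of other cell types were read in the same libraries. Counts of every marker list stand beside 21.7% of all genes tested that rose and 19.1% that fell. Of 10 mesenchymal markers 3 were tested, of which 2 rose and 1 fell. Their summed level was 5.24 and 5.23 CPM in vector cells and 5.69 and 6.02 CPM in JMJD3 cells, TWIST1 was the most abundant, and COL1A2, COL3A1, LUM and THY1 were at 0. COL5A1 had 1 and 2 counts in vector cells and 52 and 70 in JMJD3 cells, and PDGFRB had 11 and 8 against 32 and 43 (1.71, SE 0.34). Markers of this list were thus at 0, lower or higher in JMJD3 cells. Of 10 trophoblast markers 2 were tested, 0 rose by edgeR and TFAP2C fell (-1.53). TFAP2C had the most counts summed over libraries, while per length KRT7 was higher in 3 of the 4. The summed trophoblast level was 2.00 and 1.32 against 0.563 and 0.851 CPM, and CGA, CGB, HSD3B1, PAPPA, PSG1 and PSG3 were at 0.

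Of 8 fetal liver markers 2 were tested and neither passed, with sums of 10.4 and 11.8 against 12.3 and 12.0 CPM, SERPINA1 the most abundant, and with AFP, AHSG, FGB and TTR at 0. Of 10 erythroid markers only EPB42 was tested and did not pass, with sums of 0.432 and 0.987 against 1.26 and 1.05 CPM, and with each hemoglobin gene listed at 0. Of 7 skeletal muscle markers 3 were tested and none passed, with sums of 40.3 and 42.3 against 42.2 and 40.5 CPM, DES the most abundant, and with MYOD1 and MYOG at 0. These cell types thus showed no marker that rose.

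Of 7 T cell markers only CD2 was tested, and it rose (1.37, SE 0.17), so that the sum went from 3.76 and 5.29 to 11.1 and 11.1 CPM. CD5 and TRAT1 were at 0 and CD3D had 8 and 10 against 9 and 10 counts. Of 5 B cell markers 3 were tested and CD79A rose (0.83, SE 0.13), with sums of 25.9 and 30.7 against 36.6 and 32.8 CPM, CD79B the most abundant, and with MS4A1 at 0. The part of the markers that moved in the values of the imprinted genes was not tested.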

How the data were processed

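For each gene and library, the table that the authors deposited gives estimated counts and FPKM. It also holds their log2 fold changes, p-values, FDR and mean FPKM, none of which was used. The paper's methods name TruSeq libraries of polyadenylated RNA, paired-end reads, Cutadapt, STAR to hg19 and HTSeq-count, whereas the submitters' processing notes name CASAVA 1.8, TopHat2 2.0.4, RSEM, edgeR and GRCh38. The deposited counts were whole in under 1% of nonzero values, but after division by 1 factor per library (1.142968 and 1.046759 for vector cells, 0.992796 and 0.828750 for JMJD3 cells) 90.6% to 90.9% were within 0.01 of a whole number. These factors were divided out. Of the 20 members above the filter 17 then had whole counts in every library, and GNAS, NAA60 and PLAGL1 did not.

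Counts were rounded and filtered with filterByExpr. After TMM scaling, edgeR 4.0.16 in R 4.3.3 fitted quasi-likelihood models (glmQLFit, then glmQLFTest), vector against JMJD3 cells with no covariate. Benjamini-Hochberg adjustment ran over 15243 genes. The standard error is the log2 fold change divided by the square root of F. Alternatives used DESeq2 1.42.0, and limma 3.58.1 with FPKM as log2 after adding 1 or 0.1. Across genes, the log2 CPM of the vector libraries had a Pearson correlation of 0.994, that of the JMJD3 libraries of 0.998, and pairs across groups of 0.976 to 0.983. Positions are those of GENCODE release 44 on GRCh37, matched by gene identifier (93.9% of genes). Promoter windows and miRNAs are from RefSeq on GRCh38.p14, another build, and were matched by symbol.

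KDM6B and every member were named. Those that passed with a 2-fold change were given by library, those that passed with less by group, and those under the filter by count. Genes within 500 kb of a member were counted and named where they passed at 2-fold, and of each other list up to 4 of those with the largest changes were named; TRIM28, DNMT1, HYMAI, EZH2 and IGF1 were named beside these for their roles. The members, the 4 further gene lists and the 8 marker lists were chosen with earlier results of these data known.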

Additional observations from a re-analysis of the deposited data

How the results depend on the processing

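Over 14 alternatives, 21 genes (KDM6B and the 20 members above the filter) gave 291 log2 fold changes, of which 240 kept their direction and side of the threshold, 31 no longer passed, 4 newly passed in the same direction and 16 changed sign. Among the 16, TRAPPC9 with limma on log2(FPKM + 1) passed as lower. KDM6B, H19 and SLC22A18 passed in every alternative. The members that rose at least 2-fold numbered 3 or 4 but were not always the same. With limma they were H19, MKRN3 and RP1-309F20.3 on log2(FPKM + 1), with SLC22A18 added on log2(FPKM + 0.1), so that MKRN3 came in and DLK1 was lost on both. With at least 10 counts in every library and without JMJD3 replicate 2 they were DLK1, H19 and SLC22A18. At 2-fold 0 members fell in any alternative. Members that rose at any fold, 8 with edgeR, were 5 with the DESeq2 Wald test, 5 with limma on log2(FPKM + 0.1) and 4 to 10 when a library was left out. Members that fell, 3 with edgeR, were 0 with limma on log2(FPKM + 0.1), 1 (GRB10) with a replicate block and 0 to 4 when a library was left out. With a library left out, its lone partner was assumed to vary like the other group and fewer samples were fitted. Over all genes tested, limma called 1957 higher and 1920 lower on log2(FPKM + 1), with 284 and 167 at 2-fold, and 1583 and 1172 on log2(FPKM + 0.1), against 3304 and 2915, with 1157 and 438 at 2-fold, by edgeR. The DESeq2 Wald test called 2549 higher and 2861 lower, edgeR with DESeq2 size factors 3171 and 3174 and with upper quartile scaling 3673 and 2515, so the balance of calls over all genes depends on the choice. Without JMJD3 replicate 1 the calls were 1940 and 1283, without JMJD3 replicate 2 they were 1679 and 953, and without vector replicate 1 they were 4627 and 4526. Signs changed in members that had not passed. IGF2R was -0.12 and -0.13 and TRAPPC9 -0.52 and -0.57 with limma on log2(FPKM + 1) and log2(FPKM + 0.1). BLCAP was 0.00753 with upper quartile scaling. PLAGL1 was 0.0358 with that scaling, 0.0126 with no filter, 0.00833 with at least 10 counts in every library and 0.000788 with the replicate block. When a library was left out, PLAGL1 ran from -0.124 to 0.0863, KCNQ1OT1 from -0.0353 to 0.533, NAP1L5 from -0.36 to 0.11, PHLDA2 from -0.45 to 0.13 and UBE3A from -0.284 to 0.0116. The cause was not tested. RP1-309F20.3 was not tested with at least 10 counts in every library. The labels do not say what replicate numbers share, and deviations of equally numbered libraries had a correlation of -0.25. With the replicate block GNAS, NAA60 and COPG2 no longer passed, which is no measure of a weaker effect, and all genes gave 3279 calls higher and 2422 lower. A crossed replicate block, with which IGF2R newly passed (0.208), gave 4170 and 3644, with 1213 and 461 at 2-fold. It and the use of counts as deposited, with 3292 and 2906, were chosen after seeing the data. With 2 libraries per group, differences such as those of KCNQ1OT1 and PHLDA2 (SE 0.30 and 0.42) could not be resolved.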
